A study of Mus musculus with 6 samples.

Results

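The receptor tyrosine kinases through which mitogens act were examined in the accessible chromatin of Srr2 del/del neural stem cell (NSC) cultures: Egfr, Erbb2, Erbb3, Erbb4, Fgfr1, Fgfr2, Fgfr3, Pdgfra and Pdgfrb. All peaks that overlapped the body of one of these 9 genes, or the 50 kb on either side of it, were taken. Peaks of the 6 libraries that overlapped by 1 bp or more were merged into regions, and 319 of the 119719 regions of the series fell in these windows. Of the 319, 168 entered through 1 long annotated transcript of Fgfr2, which starts beside Ctbp2 and stretches the gene body to 2961 kb. Without that transcript the 9 windows held 151 regions over 2456 kb, and these 151 are called the receptor loci here, a choice made after the data were seen.

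Receptors of this kind span the membrane, and most of them bind a growth factor outside the cell and, once paired with a second receptor, phosphorylate tyrosines on the receptor tails. Adaptors such as Grb2 and Shc1 dock on those tyrosines and pass the signal to Ras, the MAP kinases and phosphoinositide 3-kinase. Egfr and the Fgf receptors are the receptors of EGF and FGF, the mitogens that keep cells of the adult subependymal zone (SEZ) dividing in culture. Pdgfra is best known in oligodendrocyte progenitors and Pdgfrb in pericytes.

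The assay was ATAC-seq, which uses a transposase to cut open DNA and attach sequencing adapters to it. The cultures came from the SEZ of mice aged 10 weeks, and in all of them the Sox2 enhancer Srr2 had been deleted with CRISPR-Cas9, on a C57BL/6J background with founders from different guide pairs. Which founder gave which library is not given in the sources used here, and libraries of the wild type were not analysed here. Both states therefore share the deletion. Cells of both states had been expanded as neurospheres with 20 ng/ml EGF and 10 ng/ml FGF. In PROLIF (replicates 1, 2 and 4), they were then kept for 2 days in vitro on Matrigel with FGF. The study names FGF alone for these 2 days, so by its description EGF was already absent in PROLIF. In DIFF (replicates 1, 2 and 4), the 2 days on Matrigel with FGF were followed by 1 day without mitogens in medium with 2% serum. The states therefore do not set EGF present against EGF withdrawn, and the withdrawal of FGF and the addition of serum cannot be told apart. In a bulk culture neither can fewer cells with an open region and less opening in each cell.

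The PROLIF lists held 59792 to 82552 peaks on the assembled chromosomes and the DIFF lists 70578 to 87728. Background pileup, which stands for depth, was 2.85 to 3.63 reads in 5 libraries and 6.01 reads in DIFF replicate 4. PROLIF replicate 4 had the shortest list, and of the 16 regions at the receptor loci seen in 5 libraries it was the one missing in 10. With the long Fgfr2 transcript it was missing in 18 of 31 (58.1%), and over all regions seen in 5 libraries in 46.2%. Because a deeper library calls weaker peaks and has lower fold values, libraries were compared by rank. A region's percentile is its place by -log10 p among the 40102 regions that had a peak in all 6 libraries, and the difference between states was tested with limma on normal scores of these ranks, with Benjamini-Hochberg adjustment over all 40102. A normal score of 1 is 1 SD of the ranked regions. The study describes the replicates as independent cultures of one genotype, and the p-values measure the spread between these libraries.

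The reference sequence at the summits of the regions on which the results turn is shown first, from GRCm38.p6, plus strand, 5′ to 3′. Capitals mark matches to short motifs searched on both strands: AP-1 (TGACTCA), the E-boxes CAGCTG and CAGATG, an NFI short site (TTGGCA) and SOX (ACAAAG or ACAATG). The first 4 are regions that ranked lower in DIFF, the next 3 had a peak in every DIFF and no PROLIF library, and the last 2 are the part of the Egfr and Pdgfra promoter summits that lies outside noncoding exon sequence.
Egfr +189.4 kb, chr11:16941539-16941639: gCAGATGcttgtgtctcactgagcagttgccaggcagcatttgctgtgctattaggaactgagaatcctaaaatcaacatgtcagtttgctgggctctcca
Fgfr1 -47.9 kb, chr8:25465687-25465787: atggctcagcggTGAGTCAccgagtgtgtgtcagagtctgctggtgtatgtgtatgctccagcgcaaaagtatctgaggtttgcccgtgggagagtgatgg
Egfr +79.9 kb, chr11:16832102-16832202: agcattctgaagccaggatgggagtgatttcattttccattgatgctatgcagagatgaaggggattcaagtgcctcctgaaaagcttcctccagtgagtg
Egfr +152.6 kb, chr11:16904786-16904886: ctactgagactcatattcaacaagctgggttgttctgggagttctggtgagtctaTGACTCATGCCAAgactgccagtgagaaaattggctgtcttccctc
Erbb4 -10.8 kb, chr1:69118770-69118870: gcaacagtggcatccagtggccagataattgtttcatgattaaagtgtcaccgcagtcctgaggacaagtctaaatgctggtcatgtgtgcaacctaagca
Fgfr1 -12.9 kb, chr8:25500713-25500813: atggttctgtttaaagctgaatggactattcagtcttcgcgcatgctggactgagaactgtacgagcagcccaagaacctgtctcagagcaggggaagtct
Erbb4 +965.3 kb, chr1:68142697-68142797: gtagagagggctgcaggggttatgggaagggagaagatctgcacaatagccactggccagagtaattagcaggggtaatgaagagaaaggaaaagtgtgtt
Egfr promoter, chr11:16752152-16752202: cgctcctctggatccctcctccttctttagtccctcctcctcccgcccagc
Pdgfra promoter, chr5:75156350-75156390: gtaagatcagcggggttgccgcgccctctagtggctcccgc
Distances in kb are from the first start site of the gene (for Fgfr2, without the long transcript) to the summit of the best-ranked peak in the region, with minus for upstream.

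A minority of the regions at the receptor loci had a peak in all 6 libraries. Differences between the states ran in different directions at different genes. Of the 151 regions at the receptor loci, 42 (27.8%) had a peak in all 6 libraries, against 33.5% of all regions. Ranks were lower in DIFF at 4 of these 42, of which 3 belonged to Egfr and 1 to Fgfr1, and higher at 1, the Fgfr3 promoter. Over all regions in 6 libraries 8.57% were called lower and 6.28% higher, so the counts at the receptors were near the background. The lower calls came down to 1 region, Egfr +189.4 kb, when PROLIF replicate 1, PROLIF replicate 2, DIFF replicate 1, DIFF replicate 2 or DIFF replicate 4 was left out, and to 2 without PROLIF replicate 4. Of higher calls 1 was left without DIFF replicate 2, 2 without PROLIF replicate 4, where the Fgfr3 promoter was not among them, and 0 without any of the other 4 libraries.

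The ranks of the 42 regions were also compared without a test. In 6 regions (14.3%) every DIFF percentile lay below every PROLIF percentile, and in 8 (19.0%) every one lay above. Over all regions in 6 libraries the shares were 17.8% and 20.3%, so such regions were no more frequent at the receptor loci. The 6 were the 4 called regions, the Egfr promoter and a region at the start of Pa2g4 near Erbb3. The 8 included 4 of the 5 regions in the Fgfr3 window and 1 each near Fgfr1, Erbb2, Erbb3 and Erbb4.

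Egfr, the EGF receptor (chr11:16752203-16918158, plus strand), had 39 regions, 8 of them in all 6 libraries. The region with the largest difference of the receptor loci was not in the gene but in the intergenic DNA beyond its end, at Egfr +189.4 kb (chr11:16941081-16942301). Its fold enrichment over the local background was 18.9, 16.5 and 17.1 in PROLIF replicates 1, 2 and 4 and 12.1, 14.1 and 11.7 in the DIFF replicates. All 3 DIFF values lay below all PROLIF values. The pileups behind them were 197, 147 and 114 reads in PROLIF and 65, 65 and 93 in DIFF, where the 93 came from the library with the deepest background. The percentile was 97.2 ± 0.0973 in PROLIF and 75.1 ± 3.17 in DIFF (SD, n = 3 each), and the normal score was 1.23 SD lower in DIFF (difference -1.23, SE 0.129, limma adjusted p = 0.00299). This region passed the test under all 11 alternatives, at adjusted p from 0.00299 to 0.0289. In libraries whose peak names carry input numbers from 227 to 297 the difference was -1.14, and in those with numbers from 606 to 614 it was -1.28.

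**Figure D1:**
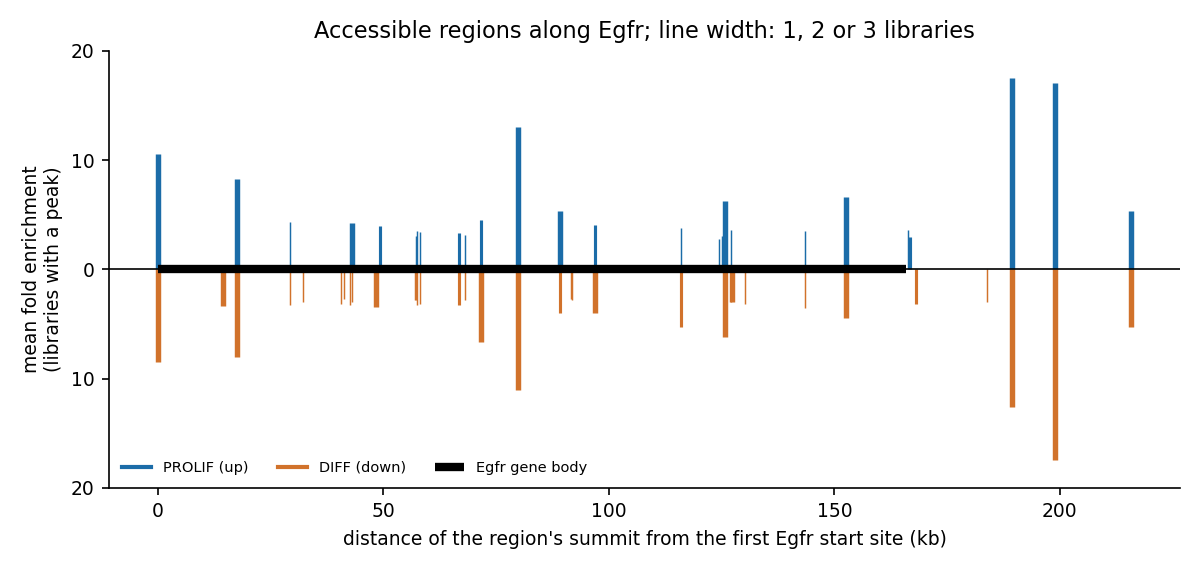
Mean fold enrichment of each region along Egfr (y, PROLIF up and DIFF down, over the libraries with a peak) against the distance of its summit from the first Egfr start site in kb (x); line width gives 1, 2 or 3 libraries and the black bar the gene body. The region at 189.4 kb is shorter in DIFF (12.6) than in PROLIF (17.5), while its neighbour at 199.0 kb stands at 17.0 in PROLIF and 17.5 in DIFF.

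The neighbour of that region served as a reading of the same stretch of chromosome. At Egfr +199.0 kb, the start of Fbxo48, folds were 18.1, 16.0 and 17.0 in PROLIF and 16.5, 18.2 and 17.7 in DIFF. The states overlapped there, and the normal score difference was -0.04 (SE 0.13, limma adjusted p = 0.867).

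A pair of introns of Egfr also ranked lower in DIFF, with smaller differences. At Egfr +79.9 kb (chr11:16831528-16832657) folds were 15.3, 12.5 and 11.3 in PROLIF and 11.3, 11.7 and 10.2 in DIFF. The folds of the states overlapped but the percentiles did not, at 93.9 ± 2.27 against 81.5 ± 3.58 (SD, n = 3 each; difference -0.66, limma adjusted p = 0.0324). At Egfr +152.6 kb (chr11:16904431-16905105) folds were 8.31, 6.34 and 5.20 in PROLIF and 4.53, 5.05 and 3.71 in DIFF, and all DIFF values were below all PROLIF values. The percentile was 28.3 ± 3.86 against 10.8 ± 5.07 (SD, n = 3 each; difference -0.70, limma adjusted p = 0.0477). Both calls were lost under 7 of the 11 alternatives, at adjusted p up to 0.320 and 0.123, and neither turned its direction. Without DIFF replicate 4, the deepest library, they stood at 0.109 and 0.123.

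The Egfr promoter region (chr11:16751913-16753378), whose summit is at the start site, had folds of 11.5, 10.8 and 9.32 in PROLIF and 7.92, 8.22 and 9.19 in DIFF. Neither folds nor percentiles of the states overlapped, but the difference did not pass the test (-0.25, 95% interval -0.59 to 0.09, limma adjusted p = 0.284). Of the 8 Egfr regions in all libraries 5 had a negative and 3 a positive difference, and the median was -0.14, beside 0.05 over all 40102 regions.

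Erbb2, Erbb3 and Erbb4 are the other receptors of the Egfr family. Erbb2 has no ligand of its own and acts as a partner, Erbb3 has little kinase activity, and Erbb3 and Erbb4 bind neuregulins. Erbb2 had 9 regions (3 in all 6 libraries), Erbb3 13 (8) and Erbb4 31 (7) over its 1076 kb. In limma 0 of these 18 regions were called in either direction. At an unadjusted p under 0.05, 0 were lower and 2 were higher, 1 each at Erbb3 and Erbb4, and ranking by fold also called 0. A region in all libraries that lay 953 bp outside the Erbb2 window was lower in DIFF (difference -0.72, limma adjusted p = 0.0169) and is not counted here.

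The strongest Erbb3 regions were those of neighbouring genes. Pa2g4, which encodes a protein that binds Erbb3, starts inside the window, and its region held percentiles of about the 99th in every library. Erbb3's own promoter region (chr10:128589601-128590678) ranked far lower, with percentiles of 38.5, 40.1 and 5.42 in PROLIF and 24.1, 34.2 and 31.6 in DIFF. The low value was that of PROLIF replicate 4, the library with the shortest list, and the SD was 19.6 over the PROLIF and 5.25 over the DIFF libraries.

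Erbb4 had most of its common regions near its start, from -49.5 kb to +152.4 kb, and another near its end at +1061.4 kb. Its promoter region was the widest of the receptors at 3554 bp, and its folds of 6.0, 5.48 and 6.19 in PROLIF and 5.43, 5.70 and 6.26 in DIFF overlapped. The intron at Erbb4 +146.2 kb had mean folds of 10.3 in PROLIF and 12.5 in DIFF, with every DIFF percentile above every PROLIF percentile, and did not pass the test (difference 0.47, SE 0.17, limma adjusted p = 0.107).

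Among the FGF receptors, 1 region was called lower at Fgfr1 and 1 higher at Fgfr3. Fgfr1 (chr8:25513654-25575718, plus strand) had 14 regions, 7 of them in all libraries. Its called region, Fgfr1 -47.9 kb (chr8:25465226-25466287), is intergenic and lay 1572 bp inside the edge of the window. Folds there were 16.2, 13.0 and 12.3 in PROLIF and 9.18, 11.2 and 11.1 in DIFF, without overlap. The percentile was 92.1 ± 1.05 in PROLIF and 77.5 ± 4.19 in DIFF (SD, n = 3 each; difference -0.65, SE 0.138, limma adjusted p = 0.0224). The call was lost under 7 of 11 alternatives, leaving out any of the 6 libraries among them, with adjusted p of at most 0.0695. The other Fgfr1 regions, in the promoter, the introns and the starts of Letm2 and Nsd3, had differences from -0.03 to 0.26 and did not pass.

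Fgfr3 (chr5:33721674-33737068, plus strand), a receptor known in astrocytes and neural progenitors, had 16 regions, 5 of them in all libraries. All 5 differences were positive, from 0.31 to 0.65, with a median of 0.40. Besides the promoter, Fgfr3 -47.1 kb lay in an intron of Tacc3 and Fgfr3 +61.1 kb at the start of Letm1. Fgfr3 -32.1 kb and -16.2 kb were intergenic. The promoter region (chr5:33721401-33722305) was the one that passed. Its folds were 7.13, 5.38 and 5.28 in PROLIF and 6.81, 7.27 and 7.81 in DIFF, and PROLIF replicate 1 lay within the DIFF range. The percentiles did not overlap, at 36.8, 28.0 and 35.6 in PROLIF and 60.8, 52.7 and 62.2 in DIFF (difference 0.65, SE 0.146, limma adjusted p = 0.0271). Ranking by fold, quantile normalization and leaving out any library but DIFF replicate 2 ended this call, with adjusted p up to 0.118. Over the 6 normal scores, the promoters nearest to it were those of Amigo3, Asb6 and Cdr2l, at Euclidean distances of 0.223, 0.237 and 0.238 among 13784 genes.

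**Figure D2:**
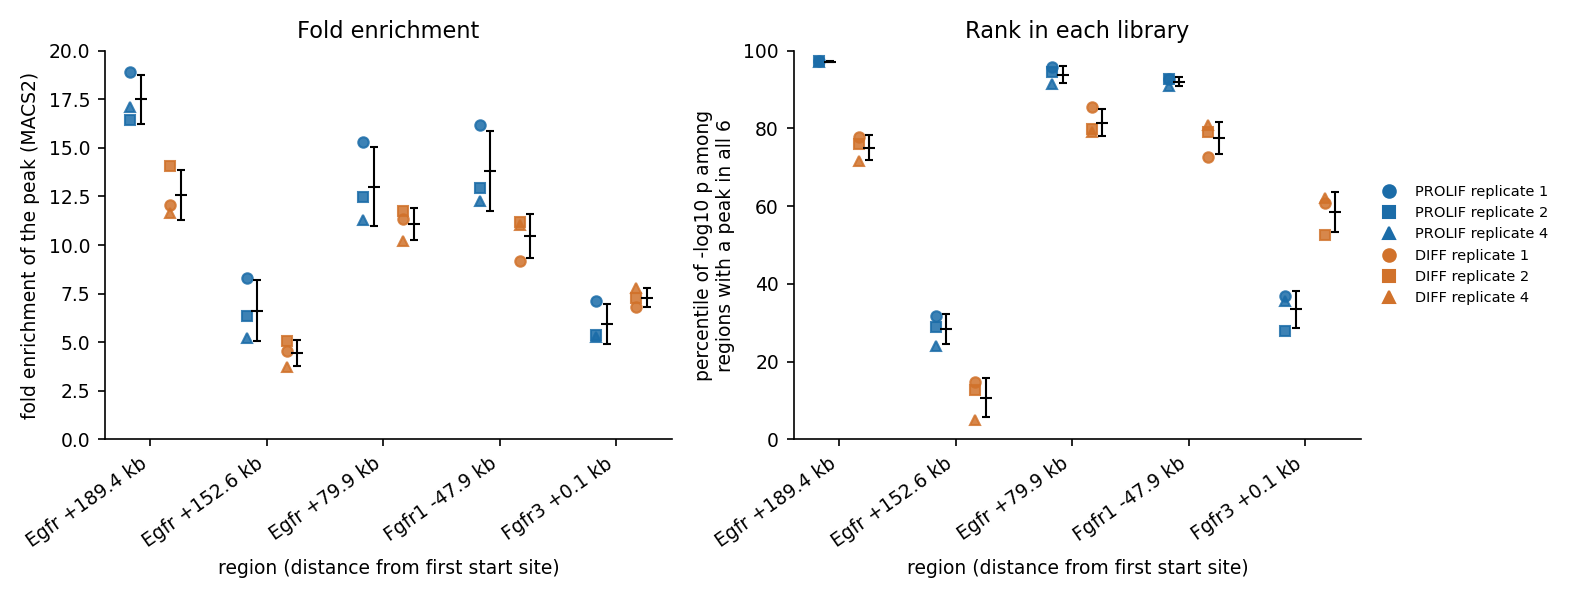
Fold enrichment (left) and percentile by -log10 p among regions with a peak in all 6 libraries (right) for the 5 called regions at the receptor loci; points are libraries (blue PROLIF, orange DIFF) and the bars give mean and SD of 3 libraries. Percentiles do not overlap in any of the 5 regions, while folds overlap at Egfr +79.9 kb and Fgfr3 +0.1 kb.

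Fgfr2 without the long transcript (chr7:130162451-130266263, minus strand) had 10 regions, of which its promoter and an intron at Fgfr2 +50.3 kb were in all 6 libraries. The promoter folds were 7.32, 8.35 and 6.58 in PROLIF and 6.87, 7.74 and 6.24 in DIFF, and the states overlapped (difference 0.08, 95% interval -0.35 to 0.50, limma adjusted p = 0.809). The intron also overlapped (difference -0.10, limma adjusted p = 0.726).

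The PDGF receptors stood apart from each other in how often their start was found. Pdgfra (chr5:75152292-75198215, plus strand) had 6 regions, none of them in its introns outside the promoter. Its promoter region had folds of 9.65, 8.13 and 5.25 in PROLIF and 7.36, 9.43 and 7.93 in DIFF, with overlap (difference 0.24, 95% interval -0.20 to 0.68, limma adjusted p = 0.425). The other region in all libraries, Pdgfra +70.7 kb, had mean folds of 5.34 and 6.37 and percentiles between the 2nd and the 43rd (difference 0.75, SE 0.36, limma adjusted p = 0.206).

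Pdgfrb (chr18:61045150-61085061, plus strand) had 13 regions and none was in all 6 libraries. At its start site a peak was present in 0 PROLIF and 2 DIFF libraries, with folds of 4.32 in DIFF replicate 2 and 2.55 in DIFF replicate 4. Within the gene, Pdgfrb +7.8 kb (chr18:61052532-61053092, intron) had peaks in all 3 DIFF libraries, with folds of 5.11, 7.49 and 7.36 and pileups of 33, 46 and 74 reads. No PROLIF list held a peak there, which means a signal under the caller's threshold and does not by itself show closed chromatin. Pericyte genes as a list, which holds Pdgfrb itself, had a promoter peak for 4 to 5 of 7 members in the PROLIF libraries and 5 to 6 in the DIFF libraries, and the part of such cells in the Pdgfrb peaks was not tested.

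Regions with a peak in every DIFF and no PROLIF library were found at 5 of the 9 receptors. They numbered 11 of the 151 regions (7.28%), against 3.48% of all regions, while 0 of 151 had the opposite pattern, against 1.79%. The opposite pattern rose to 1 region without PROLIF replicate 1 or DIFF replicate 4 and to 3 without PROLIF replicate 2. With lists cut to the length of the shortest the regions of DIFF numbered 9, with a q of 0.01 or smaller 10, and between 11 and 15 when any library was left out. Paired by replicate number, where a region had to be gained in at least 2 pairs and lost in none, the counts were 21 gained and 5 lost in DIFF. The share of all regions under this looser rule is not given here, so these counts have no background. Over all regions, 34.8% had peaks in more DIFF than PROLIF libraries and 25.1% in fewer, and at the receptor loci these shares were 43.7% (66 regions) and 18.5% (28 regions).

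**Figure D3:**
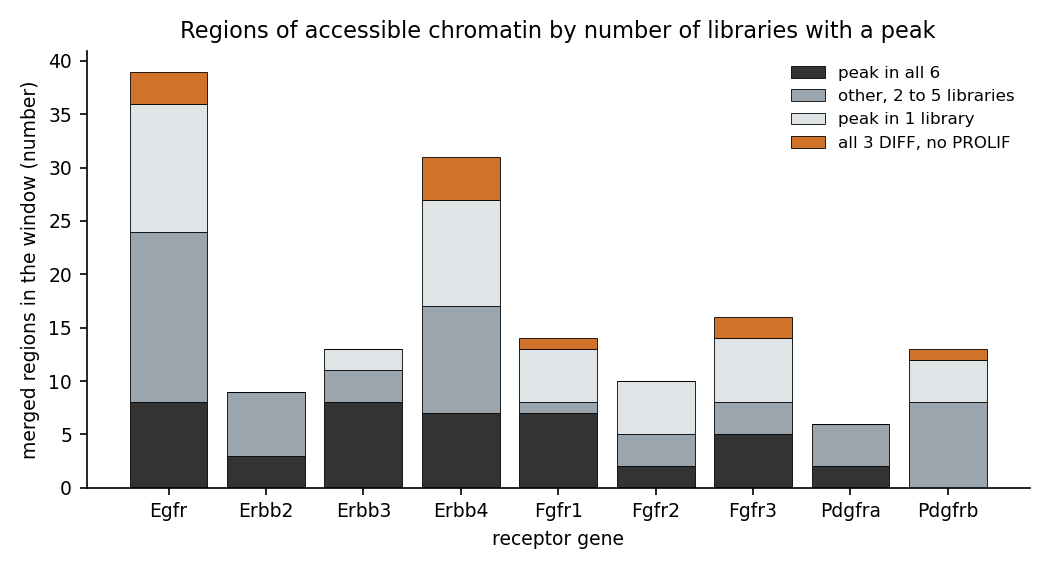
Number of merged regions (y) in the window of each receptor gene (x, Fgfr2 without the long transcript), split by how many libraries had a peak. Regions with a peak in every DIFF and no PROLIF library are orange, with 4 at Erbb4 and 3 at Egfr, and Pdgfrb alone has no region in all 6 libraries.

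Erbb4 had 4 of the 11. At Erbb4 -10.8 kb (intergenic) folds were 4.96, 7.08 and 5.56 in the DIFF replicates, and at Erbb4 +965.3 kb (intron) 5.39, 9.10 and 4.42. The introns at Erbb4 +606.3 kb and +234.9 kb had folds from 3.85 to 5.81. DIFF replicate 2 gave the highest fold in 3 of these 4 regions, and DIFF replicate 4, the deepest library, in 0. Because a deeper library has lower folds, this order was no test of depth. Pileups in DIFF replicates 1, 2 and 4 were 22, 27 and 38 reads at Erbb4 -10.8 kb and 24, 35 and 30 at +965.3 kb. At +606.3 kb they were 18, 15 and 27 reads, and at +234.9 kb 17, 22 and 26.

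Egfr had 3, all of them inside the gene and weak. Their folds ran from 2.77 to 3.71, at Egfr +14.4 kb, +48.5 kb and +127.3 kb, the last within 3 kb of an internal start site. Egfr therefore held regions called lower and regions seen in DIFF alone, and the latter were the weaker by fold.

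Fgfr1 -12.9 kb (intergenic) had folds of 4.75, 6.06 and 4.85. Fgfr3 had a pair, at Fgfr3 +16.5 kb with 3.88, 4.10 and 3.71 and at Fgfr3 -17.5 kb with 2.24, 3.11 and 2.19. The 11 regions had a median width of 463 bp, against 1006 bp for the 42 regions in all libraries, and over all regions the same classes had 343 and 770 bp. By location 6 lay in introns, 4 between genes and 1 near an own start site.

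**Figure D4:**
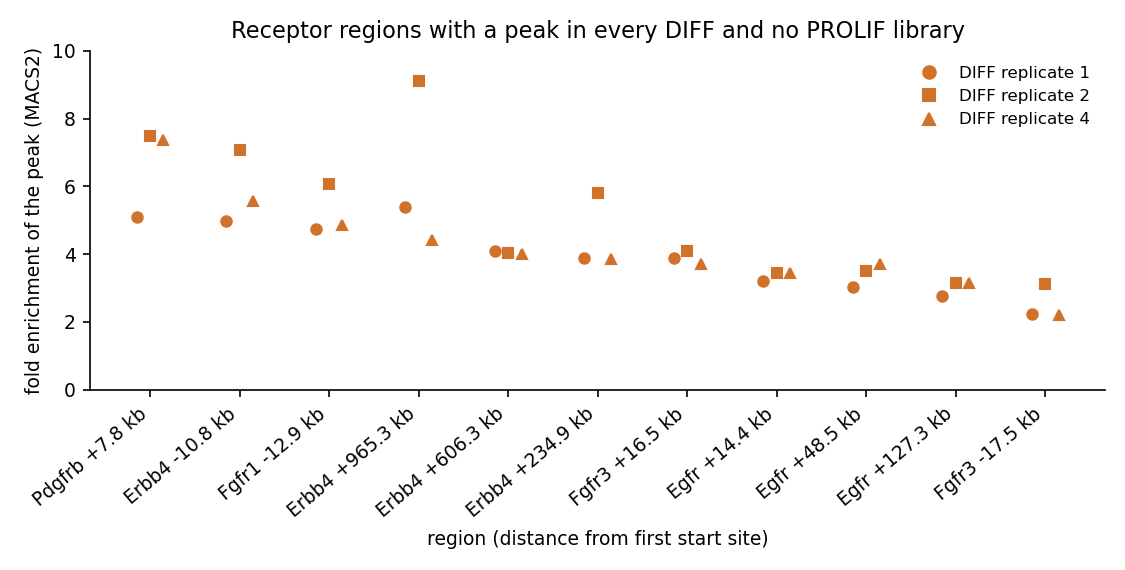
Fold enrichment (y) in each DIFF library at the 11 receptor regions (x) that had a peak in all 3 DIFF and no PROLIF library, ordered by the lowest of the 3 values. Folds range from 2.19 at Fgfr3 -17.5 kb to 9.10 at Erbb4 +965.3 kb.

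As a share of all peaks, the receptor loci took more in DIFF. They held 11.6, 11.1 and 11.9 of each 10000 peaks in the PROLIF replicates and 13.9, 12.6 and 13.9 in the DIFF replicates, without overlap. The difference was 1.93 per 10000, with a two-sided exact permutation p of 0.1, which is the smallest that 3 against 3 libraries can give. With all 9 windows as annotated the values were 26.3 ± 0.714 and 28.9 ± 0.387 (SD, n = 3 each; exact permutation p = 0.1). With libraries paired by replicate number the exact permutation p was 0.25 for either set of windows, the smallest that 3 pairs can give.

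By gene, 8 of the 9 receptors had a promoter region, within 3 kb of a start site, with a peak in all 6 libraries. Over all protein-coding genes the share was 63.1%, and Pdgfrb was the exception among the receptors. The promoters ranked in the order Fgfr1, Egfr, Erbb4, Fgfr2, Pdgfra, Fgfr3, Erbb2 and Erbb3, with mean percentiles over the 6 libraries of 80.6, 70.6, 66.3, 54.0, 51.9, 46.0, 32.3 and 29.0. The ranges of every pair of neighbours in this order overlapped. Egfr was above Erbb4 in 6 of 6 libraries, by 4.35 ± 4.67 percentile points, and Fgfr1 above Egfr in 5 of 6, by 9.97 ± 8.72 (SD). Fgfr2 and Pdgfra, Pdgfra and Fgfr3, and Erbb2 and Erbb3 changed places, with each order seen in 3 of 6 libraries. Fgfr3 averaged 33.4 over the PROLIF libraries, below Pdgfra (47.2), and 58.6 over the DIFF libraries, where Pdgfra averaged 56.5.

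**Figure D5:**
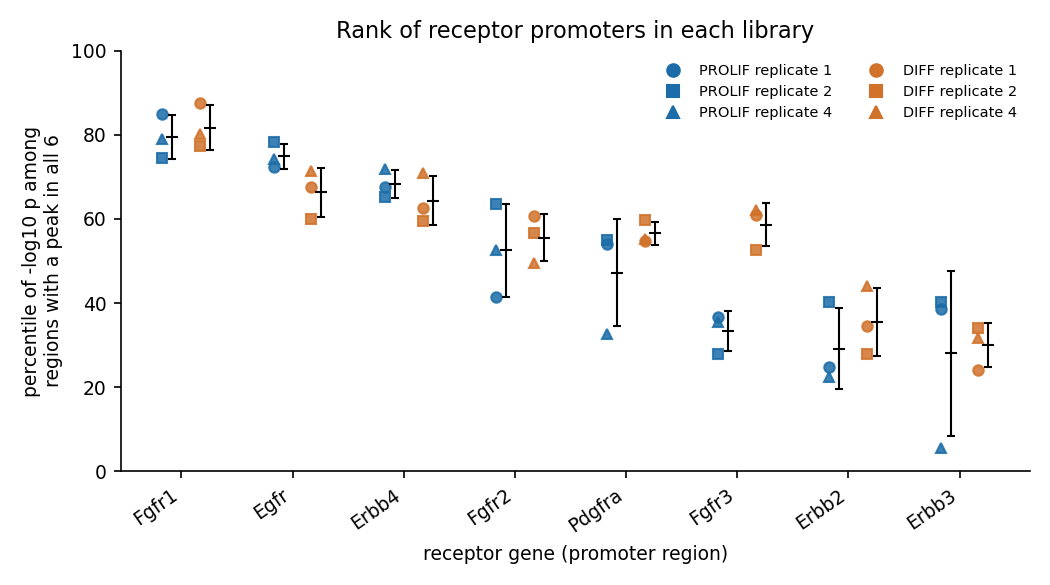
Percentile by -log10 p among regions with a peak in all 6 libraries (y) of the promoter region of each receptor (x, Fgfr2 without the long transcript); points are libraries and bars give mean and SD of 3 libraries per state. Fgfr3 is the receptor whose DIFF points (52.7 to 62.2) all lie well above its PROLIF points (28.0 to 36.8).

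The same motifs were counted within 100 bp on either side of the summits, as a description. That stretch is longer than the sequences printed above, so a counted match need not appear in them. In the 4 regions called lower at the receptor loci, the E-box CAGCTG was in 3, all of them at Egfr, and AP-1 in 2 (Egfr +152.6 kb and Fgfr1 -47.9 kb). Of all 3436 regions called lower with a full sequence, 38.9% held CAGCTG and 16.6% AP-1, and of all regions in 6 libraries 21% and 4.55%. The NFI short site was in 2 of the 4 and SOX in 0 of 4, against 21.1% and 38.7% of all regions called lower. The 11 regions of DIFF held AP-1 in 0, CAGCTG in 1, the NFI short site in 2 and SOX in 2, and the 4161 such regions of the series held the NFI short site in 32.8% and AP-1 in 2.48%.

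The stretch that the long transcript adds to the Fgfr2 body held 168 regions, and other genes with a start inside the Fgfr2 window numbered 24. There 61 regions were in all 6 libraries, 11 in every DIFF and no PROLIF library and 4 in every PROLIF and no DIFF library. In limma 2 were lower in DIFF and 1 was higher. An intron shared with Oat, the gene of ornithine aminotransferase, at Fgfr2 -2304.0 kb had folds of 6.37, 6.09 and 5.20 in PROLIF and 3.18, 3.41 and 3.17 in DIFF, without overlap (difference -1.07, limma adjusted p = 0.00364). At Fgfr2 -571.8 kb folds were 4.51, 3.23 and 2.81 in PROLIF and 6.02, 7.58 and 6.18 in DIFF, also without overlap (difference 1.17, limma adjusted p = 0.0113). Both passed under all 11 alternatives, but the pileups behind them overlapped between the states. They were 31, 23 and 19 reads in PROLIF and 20, 19 and 28 in DIFF at Fgfr2 -2304.0 kb. At Fgfr2 -571.8 kb they were 50, 34 and 28 reads in PROLIF and 47, 60 and 88 in DIFF. Pileups are not adjusted for depth, and folds are relative to the local background.

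Nearest to Fgfr2 itself was Fgfr2 -53.7 kb, upstream of its other start sites and 3515 bp outside the window drawn without the long transcript. Folds were 14.9, 14.0 and 11.9 in PROLIF and 9.49, 12.2 and 10.8 in DIFF, which overlapped (difference -0.52, limma adjusted p = 0.0443). With the replicate number as a block the adjusted p was 0.0656, and the call was lost under 9 of 11 alternatives. The 4 regions seen in PROLIF alone had folds from 3.12 to 8.56, and 1 of them, at Fgfr2 -569.4 kb, lay beside the region that ranked higher in DIFF.

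The partners of the receptors were read at their promoters, from 4 lists with 70 genes, of which 66 could be tested. The ligands had 18 of 21 tested and 0 called in limma, with 0 at an unadjusted p under 0.05 in either direction and 0 when ranked by fold. Of the other receptor tyrosine kinases 15 of 16 were tested and 1, the collagen receptor Ddr1, was lower. Of 27 adaptors and signal relays 3 were higher, of which ranking by fold left 1, and of 6 genes of receptor turnover 0 were called by limma or by fold rank, with 1 higher at an unadjusted p under 0.05. Over the promoters of all genes 2.27% were called lower and 3.1% higher. The 1 lower and 3 higher among the 66 tested partners were near those shares. The median difference over the 66 was 0.10, beside 0.11 over all promoters tested.

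The 3 higher promoters were all in the list of adaptors and signal relays, so their place in receptor signalling was set by the choice of that list. Shc1, an adaptor, had percentiles of 84.3, 86.0 and 85.6 in PROLIF and 94.6, 93.6 and 94.0 in DIFF (difference 0.51, limma adjusted p = 0.0345). Map2k1, the kinase that activates the MAP kinases, had 69.7, 75.9 and 73.2 in PROLIF and 93.4, 87.0 and 92.1 in DIFF (difference 0.74, limma adjusted p = 0.0212). Nras, a Ras protein, had 52.5, 59.3 and 42.7 in PROLIF and 73.5, 70.5 and 76.8 in DIFF (difference 0.60, limma adjusted p = 0.0451). Ddr1 had 90.4, 88.6 and 84.2 in PROLIF and 73.7, 71.4 and 74.1 in DIFF (difference -0.56, limma adjusted p = 0.0383). With the replicate block the adjusted p was 0.0697 for Shc1, 0.0447 for Map2k1, 0.0791 for Nras and 0.0662 for Ddr1. Ranked by fold it was 0.122 for Shc1, 0.0199 for Map2k1, 0.0866 for Nras and 0.0312 for Ddr1. Leaving out a library brought the higher calls to 0 without PROLIF replicate 1, DIFF replicate 1 or DIFF replicate 4 and to 1 without PROLIF replicate 4 or DIFF replicate 2, and the lower call was lost without any of the 6.

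The labelled cell type was checked at promoters. Of 10 genes of neural stem and progenitor cells 9 had a promoter peak in all 6 libraries and Slc1a3 in some. Of 8 oligodendrocyte progenitor genes 5 had a peak in all libraries, of 7 pericyte genes 4, and of 5 astrocyte genes 5. Of 6 endothelial genes Kdr and Flt1 had a peak in all libraries, and Cdh5, Pecam1, Cldn5 and Tek had none in any. Of 6 microglia genes P2ry12 and Csf1r had a peak in all libraries, Aif1 and Tmem119 in some, and Cx3cr1 and Spi1 in none. Of 5 neuron genes Snap25, Syt1 and Tubb3 had a peak in all libraries, Rbfox3 in some and Dcx in none, and Sox10, of the oligodendrocyte lineage, had none either. Over all protein-coding genes 63.1% had a promoter peak in all 6 libraries. The oligodendrocyte progenitor, pericyte and neuron counts lay near that share, and every astrocyte gene had such a peak. These counts therefore do not identify the cell type.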

How the data were processed

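ATAC-seq libraries of 3 PROLIF and 3 DIFF cultures were grouped by the state and replicate number in the labels. The authors clipped and trimmed reads (cutadapt, Trimmomatic, at least 20 bases), mapped them to GRCm38 (mm10) with Bowtie2, marked duplicates and called narrow peaks per library with MACS2 at an FDR of 0.05. Software versions and whether reads were shifted for the transposase or filtered by a blacklist are not given in the sources used here, and each can move peak edges. The deposited lists give a score, a fold enrichment (a ratio to the local background), and -log10 p and q. The score deposited is the whole part of 10 times -log10 q and was not used. The labels call the material RNA in the treatment field and genomic DNA as molecule, and the lists hold peaks.

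Peaks of chromosomes 1 to 19, X and Y were merged where they overlapped, and genes came from GENCODE M21. Pileup and background were solved from fold and p, and this step was tested on simulated peaks. Differences were tested with limma 3.58.1 (R 4.3.3), moderated, over 40102 regions. In a simulation of DIFF against PROLIF over 40102 regions, 32 of 100 regions shifted by 1 SD and 85 of 100 shifted by 2 SD were recovered, with 3 false among 120 calls. The simulation shifted 200 regions, while the data gave 3436 lower and 2520 higher calls. Its Benjamini-Hochberg cut-off was therefore stricter, and its recovery does not give the power in the data. Exact permutation tests, merging and counts used Python 3.11.15, numpy 2.4.6, pandas 2.3.3 and scipy 1.17.1, and matplotlib 3.10.9 drew the plots. Read totals were not used here, so intervals for depth are not given.

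The receptors, partner lists and rules were chosen with earlier results of these data known. Named regions were all called and state-only regions, the promoter region with the highest mean rank of each receptor, called partners, and the 3 promoters nearest to a called one. For Fgfr2 this rule gave the start of its long transcript, shared with Ctbp2 (difference -0.25, limma adjusted p = 0.254), and the promoter at its other start sites is described instead. Sequences are 101 bases at the summit, cut at noncoding exons.

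The labels give both states the numbers 1, 2 and 4. Over the 40102 regions, deviations of the normal scores from the state mean correlated at 0.142, 0.154 and 0.126 between libraries with the same number. Between different numbers they correlated at -0.106 to -0.0331, in part because deviations from a state mean cancel out. The numbers were taken to pair the libraries in the replicate block alone, and the main limma fit and permutation test were unpaired. Alternatives were a q of 0.01, lists of equal length, flanks of 10 kb, promoters of 1 kb, a cover of 50% of the region, rank by fold, quantile normalization, the replicate block and leaving out each library.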

Additional observations from a re-analysis of the deposited data

How the results depend on the processing

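A peak list holds what passed its caller, so absence can come from depth as well as from lower accessibility. Which of these applied was not tested. The simulation recovered 32 of 100 shifts of 1 SD, with far fewer regions shifted than were called in the data. Counts below are over all 9 windows as annotated. With the replicate block, where the rule for occupancy was looser, 16 regions were lost and 48 gained in DIFF, against 4 and 22, and 0 partners were lower. The share of all regions lost or gained under that rule is not given here. The block gave 7 lower and 3 higher receptor regions, against 6 and 2. It lost Fgfr2 -53.7 kb and gained 3 regions of the long Fgfr2 stretch, Fgfr2 -693.9 kb and -1976.6 kb as lower and -2422.7 kb as higher (limma adjusted p = 0.0447, 0.0469 and 0.0450). Among the partners it lost Ddr1, Shc1 and Nras and gained Shc2 as higher (limma adjusted p = 0.0299), which is named after its value was seen. Ranking by fold gave 3 lower and 1 higher receptor regions, against 6 and 2, and 1 higher partner, against 3. Quantile-normalized log2 folds gave 3 lower and 1 higher. Without the long Fgfr2 transcript, an alternative added after seeing the data, the counts were 0 regions of PROLIF alone, 11 of DIFF alone and 1 higher. Leaving out 1 library at a time gave 4 to 9 regions of PROLIF alone, 22 to 32 of DIFF alone, 2 to 4 lower, 1 to 3 higher, a difference of 2.36 to 3.04 peaks per 10000, 0 lower partners and 0 to 2 higher partners. The highest count of PROLIF alone came without PROLIF replicate 2, with 8 without PROLIF replicate 4. Lower calls were 2 without PROLIF replicate 1, DIFF replicate 2 or DIFF replicate 4 and 3 without PROLIF replicate 4 or DIFF replicate 1. The causes were not tested. None of the 8 called regions turned its direction under the alternatives run for it.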
